A study of Mus musculus with 4 samples.

Results

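The genes described here encode the nuclear parts of 4 machines of oxidative phosphorylation: respiratory complexes I, II and III and the ATP synthase. They were found by symbol: every symbol starting with Nduf, Uqcr or Atp5, plus Sdha, Sdhb, Sdhc, Sdhd and Cyc1. The naming table held 95 such symbols, of which 76 had a probe on the array, and all 76 were well above background on all 4 arrays and were tested, among 20918 features tested in all. The other 19 comprised 16 pseudogenes and 3 protein-coding genes, Ndufb1, Ndufb4b and Ndufb4c. The 76 genes fell into 38 named as complex I subunits, 8 complex I assembly factors (the Ndufaf genes), 4 of complex II, 9 of complex III and 17 of the ATP synthase. Cytochrome c oxidase, complex IV, was not covered by the naming rule.

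The cells were cardiomyocytes differentiated from CGR8, a mouse embryonic stem cell line, and total RNA of each sample was hybridised to its own 1-colour Cy3 Agilent array. The groups were 2 samples that received a scrambled small interfering RNA (siScr) and 2 that received one against Erbb4 (siErbB4), which encodes a neuregulin receptor of the epidermal growth factor receptor family. Both groups were exposed to the RNA for 48 hours with the Pepmute reagent, in low-glucose medium with 2% serum. Cultures stood for 6 or 24 hours, and no label ties a sample to either time. In the description field the siErbB4 samples are called si-Scr, and in the source field the target of siErbB4 2 is spelt ErbB5, whereas titles and the transfection field name ErbB4. Groups were taken from the transfection field. Samples are called here by group and the number in the title, and nothing in the labels says that equal numbers mark a shared culture, or that samples came from separate cultures. The p-values therefore measure only the spread between these samples.

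Complex I takes electrons from NADH, complex II takes them from succinate as a step of the citric acid cycle, and both pass them through ubiquinone to complex III and on to cytochrome c. Complexes I and III pump protons as they work, and the ATP synthase lets protons flow back to make ATP. Heart muscle cells are packed with mitochondria, and genes of these complexes are usually abundant in them. Complex I, complex III and the ATP synthase also contain subunits made from mitochondrial DNA; none of the 13 mitochondrially encoded mRNAs had a probe under its symbol, so only the nuclear share of each complex is described.

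All 4 arrays lay on 1 slide and had 1 scan time. The arrays numbered 2 lay at slide positions 1 and 2 and those numbered 1 at positions 3 and 4, so slide position and sample number cannot be told apart. Per array, 64.8% to 68.5% of probes exceeded background clearly, and the processed signal had a 75th percentile of 878 to 989. The Erbb4 probe gave a processed signal of 9.02 in siScr 1, 11.9 in siScr 2, 2.83 in siErbB4 1 and 15.0 in siErbB4 2, and passed the background flag on 1 array, so the knockdown could not be checked here. The 12 cardiomyocyte markers (Myh6, Tnnt2, Actc1 and others) were all well above background, as were 14 of 14 fibroblast and matrix markers and 4 of 5 smooth muscle markers.

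Between siErbB4 and siScr the direction of the respiratory genes depended on the arrays and the scaling. Of the 76, 40 were higher and 36 lower in siErbB4, with a median log2 difference of 0.02, beside -0.01 over all features. Quantile normalization put 59 of them higher and normexp with quantile normalization 55; leaving out 1 array put 5 higher (without siScr 1), 68 (without siScr 2), 69 (without siErbB4 1) or 15 (without siErbB4 2). Levels below are on a log2 scale, relative to the 75th percentile of the processed signals of that array, called the scaled log2 level, and differences are siErbB4 minus siScr on that scale. In limma with Benjamini-Hochberg adjustment 0 of the 76 genes and 0% of all features passed an adjusted p of 0.05. At an unadjusted limma p under 0.05 the counts were 0 of 76 genes and 1.79% of all features. In 3 genes the siErbB4 and siScr arrays did not overlap, while 29.0% of all features had no such overlap. The median SE over the 76 genes was 0.19, and apart from Ndufa4l2 the 95% intervals reached down to at most -1.01 and up to at most 0.86, so a difference of up to about that size was not detectable for single genes. With 2 arrays against 2 an exact two-sided permutation test of 1 gene cannot go below p = 0.333. Because whole cultures were measured, fewer cells of a type and less RNA per cell cannot be told apart.

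**Figure D1:**
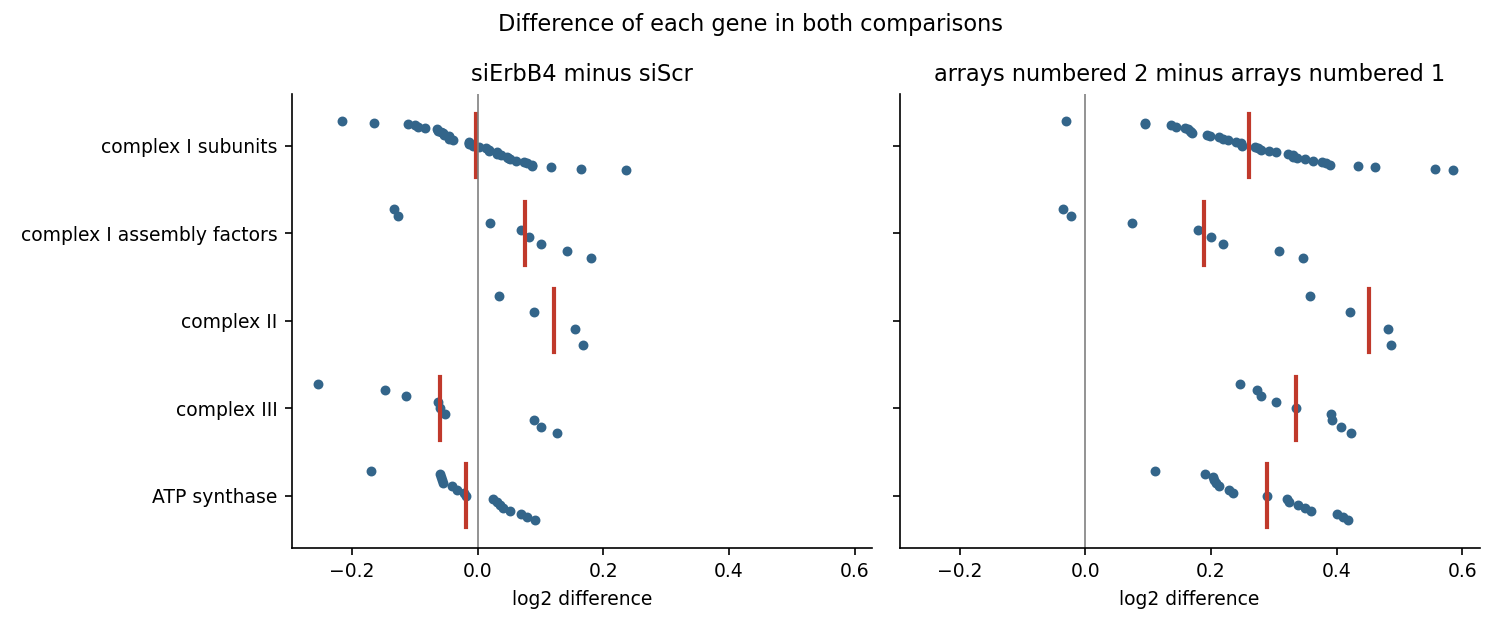
Log2 difference of each respiratory complex gene (1 point per gene, Ndufa4l2 not drawn) between siErbB4 and siScr, left, and between the arrays numbered 2 and those numbered 1, right, on 1 shared axis; red bars mark the median of each class with Ndufa4l2 included. The left points straddle 0, with class medians between -0.06 and 0.12, and all but 3 of the right points lie above 0, with class medians between 0.19 and 0.45.

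Of the 38 complex I subunits 19 were higher and 19 lower in siErbB4, with a median difference of -0.0026. Ndufa8, an accessory subunit of the intermembrane space side, measured 3.28 in siScr 1, 3.71 in siScr 2, 3.59 in siErbB4 1 and 3.86 in siErbB4 2. The groups overlapped, and its difference of 0.24 (SE 0.22) was the highest of the complex after that of Ndufa4l2. Ndufa11, a membrane-arm subunit, measured 3.67, 3.84, 3.35 and 3.73 in the same order, a difference of -0.21 (SE 0.19). Ndufc2, another membrane-arm subunit, had the highest p of the complex, with levels of 4.59 and 4.75 in siScr and 4.59 and 4.75 in siErbB4. Ndufs1, the subunit with the most iron-sulfur clusters, differed by -0.05 (SE 0.26) and Ndufv1, which holds the NADH-binding flavin, by -0.09 (SE 0.25). Ndufab1, which is also the mitochondrial acyl carrier protein, differed by -0.04 (SE 0.13).

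Ndufa4l2 stood apart through 1 array. It is a paralog of Ndufa4 known as a target of hypoxia-inducible factor. Its scaled log2 level was -5.62 in siScr 1, -5.27 in siScr 2, -5.97 in siErbB4 1 and -2.68 in siErbB4 2, and the processed signals behind these were 20.1, 22.7, 15.1 and 146. Only siErbB4 2 was high, and the lowest of the 4 values lay in the same group. The difference between groups was 1.12 (SE 1.17, 95% interval -2.10 to 4.35), with an adjusted p of 1.00 in limma after Benjamini-Hochberg adjustment. Within the samples numbered 1 it was -0.35 and within those numbered 2 it was 2.59. Ndufa4 itself, now counted by many authors as a subunit of complex IV, measured 5.04, 5.39, 5.18 and 5.43, with the groups interleaved and a difference of 0.09 (SE 0.20).

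Among the 8 complex I assembly factors 6 were higher and 2 lower in siErbB4 (median 0.08). Ndufaf3 and Ndufaf4, which act together on an early assembly intermediate, lay on opposite sides. Ndufaf4 measured 1.62 and 1.82 in siScr and 1.93 and 1.88 in siErbB4, so both siErbB4 arrays were above both siScr arrays, with a difference of 0.18 (SE 0.14). Ndufaf3 measured 1.29 and 1.20 in siScr and 1.10 and 1.12 in siErbB4, a difference of -0.13 (SE 0.13) with both siErbB4 arrays below. Ndufaf1, which joins membrane-arm modules, differed by 0.14 (SE 0.17) and Ndufaf8, the partner of Ndufaf5, by 0.02 (SE 0.14). None of these differences passed the test.

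All 4 complex II genes were slightly higher in siErbB4, by 0.03 to 0.17, with overlapping groups in each. The difference was larger in the arrays numbered 1: within number 1 the median of the 4 genes was 0.22 and within number 2 it was 0.01. The direction turned when 1 array was left out: the median was -0.14 without siScr 1 and -0.05 without siErbB4 2. Sdhd, a membrane anchor, differed by 0.17 (SE 0.25) and Sdhc, the other anchor, by 0.15 (SE 0.23). Sdha, the flavoprotein that oxidises succinate, differed by 0.09 (SE 0.27) and Sdhb, the iron-sulfur subunit, by 0.03 (SE 0.27).

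In complex III 3 genes were higher and 6 lower in siErbB4 (median -0.06). Uqcrc1, a core subunit facing the matrix, measured 4.90 in siScr 1, 5.04 in siScr 2, 4.54 in siErbB4 1 and 4.89 in siErbB4 2. Both siErbB4 arrays were below both siScr arrays, siErbB4 2 by a margin of under 0.01, and the difference was -0.25 (SE 0.18, 95% interval -0.76 to 0.25). Cyc1, the cytochrome c1 of the complex, differed by -0.15 (SE 0.25), Uqcrq by -0.11 (SE 0.19) and Uqcrh, the hinge protein, by -0.05 (SE 0.21). The Rieske iron-sulfur protein gene Uqcrfs1 measured 4.82, 5.46, 5.18 and 5.36, with the siErbB4 values between those of siScr and a difference of 0.13 (SE 0.26).

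Of the 17 ATP synthase genes 8 were higher and 9 lower in siErbB4, all between -0.17 and 0.09. Atp5d, the delta subunit of the central stalk, differed by -0.17 (SE 0.19), Atp5l, subunit g, by 0.09 (SE 0.17) and Atp5mpl, a small membrane subunit, by 0.07 (SE 0.17). The catalytic beta subunit gene Atp5b measured 7.39, 7.65, 7.39 and 7.54, a difference of -0.05 (SE 0.16). Atp5a1, the alpha subunit, differed by -0.06 (SE 0.23). Atp5g1, Atp5g2 and Atp5g3 encode the same mature c subunit of the rotor ring with different import sequences, and differed by -0.06, 0.02 and -0.02.

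The respiratory genes were instead ordered by sample number. In 71 of the 76, both arrays numbered 2 (siScr 2 and siErbB4 2) lay above both numbered 1, and in 0 below both; over all features the shares were 29.4% above and 26.0% below. The 5 exceptions were Ndufa7, Ndufaf3, Ndufaf4, Ndufaf8 and Uqcrc1. The median difference, number 2 minus number 1, was 0.28, beside 0.02 over all features, and 73 genes were positive. At an unadjusted limma p under 0.05, 28 of the 76 genes were higher in number 2, beside 12.3% of all features. After Benjamini-Hochberg adjustment in limma 0 of the 76 passed 0.05, while 5.16% of all features did (1079, of them 599 higher in number 2 and 480 lower); the lowest adjusted p among the respiratory genes was 0.0591. In limma the features called numbered 0 without siScr 1 (5313 at an unadjusted p under 0.05), 0 without siScr 2 (2705), 1551 without siErbB4 1 and 68 without siErbB4 2. In each of these runs 1 side of the comparison was a lone array, assumed to vary like the other 2. The median difference of the 76 genes was 0.24 without siScr 1, 0.24 without siScr 2, 0.32 without siErbB4 1 and 0.31 without siErbB4 2. Without siScr 2, and without siErbB4 2, the share of the 76 at an unadjusted p under 0.05 was below that of all features.

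The order by number held on both sides of the transfection: the median of siScr 2 minus siScr 1 was 0.35 and that of siErbB4 2 minus siErbB4 1 was 0.22. With normexp background correction and quantile normalization the median over all features was 0.00 and that over the respiratory genes 0.18, and 53 of the 76 genes did not overlap and were higher in number 2 (27.1% of all features). In that setting 2 genes passed, Ndufv3 at an adjusted p of 0.0434 and Sdha at 0.0475. Brightness moved with the result too. Of the features with a mean scaled log2 level between 4 and 6, 37.3% did not overlap and were higher in number 2, beside 34 of 36 respiratory genes, and above 6 the values were 44.4% and 26 of 26. The median difference of the other features in these ranges was 0.04 and 0.07, while that of the respiratory genes was 0.28 and 0.30. The 7 spike-in controls that were well above background on every array differed by -0.06 to 0.15 between the numbers. All 7 were higher in siErbB4 than in siScr, by 0.03 to 0.25 (median 0.10).

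**Figure D2:**
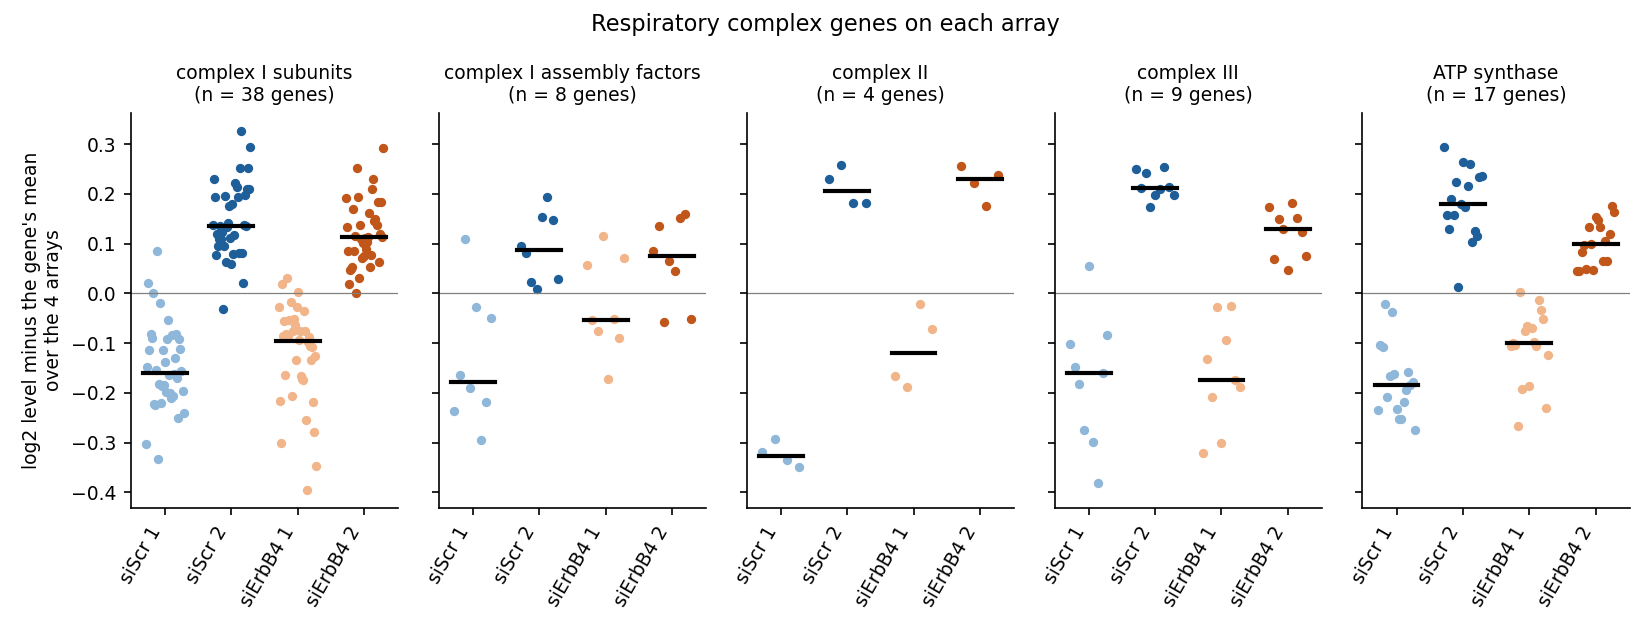
Scaled log2 level of each respiratory complex gene minus its own mean over the 4 arrays, by array and class (1 point per gene, Ndufa4l2 not drawn; black bars are class medians with Ndufa4l2 included). In every class both medians of the arrays numbered 2 lie above 0, from 0.07 to 0.23, and both medians of the arrays numbered 1 below, from -0.33 to -0.05.

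Complex II had the highest class median, 0.45, and all 4 of its genes had both arrays numbered 2 above both numbered 1. Sdha measured 4.75 in siScr 1, 5.30 in siScr 2, 4.90 in siErbB4 1 and 5.32 in siErbB4 2. Its difference was 0.49 (SE 0.12), a fold of 1.40, with an adjusted p of 0.0931 in limma after Benjamini-Hochberg adjustment. Sdhb measured 5.76, 6.31, 5.87 and 6.28, a difference of 0.48 (SE 0.11, adjusted p 0.0856). The anchors were close to this: Sdhc measured 4.28, 4.79, 4.59 and 4.79 (difference 0.36, SE 0.15) and Sdhd 4.53, 5.06, 4.81 and 5.12 (difference 0.42, SE 0.14). In each of the 4 genes the lowest level was that of siScr 1. Whether complex II differed more than the other complexes was not tested, and the SEs above are of the size of the gaps between class medians.

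Of the 38 complex I subunits 37 were higher in number 2, each without overlap, and the class median was 0.26 (0.25 without Ndufa4 and Ndufa4l2, a choice made after seeing the data). Among them were core subunits, which build the electron path of the peripheral arm. Ndufs1 measured 4.82, 5.28, 4.77 and 5.23, a difference of 0.46 (SE 0.11) with an adjusted p of 0.0866 in limma after Benjamini-Hochberg adjustment. Ndufv1 measured 6.11, 6.52, 5.99 and 6.45, a difference of 0.43 (SE 0.11). The core subunit genes Ndufs3, Ndufs7, Ndufs8 and Ndufv2 differed by 0.23, 0.20, 0.33 and 0.32.

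The lowest adjusted p of all respiratory genes belonged to Ndufv3, a small accessory subunit of the NADH-oxidising module, and it rested on 1 of its 2 probes. The brighter probe measured 5.80, 6.33, 5.69 and 6.33, a difference of 0.59 (SE 0.11, 95% interval 0.30 to 0.87), a fold of 1.50, with an adjusted p of 0.0591 in limma after Benjamini-Hochberg adjustment. The other probe, assigned to the same RefSeq transcript, measured 0.44 in siScr 1, 0.12 in siScr 2, 0.14 in siErbB4 1 and 0.17 in siErbB4 2, a difference of -0.15. Ndufv3 was the 1 gene of the 21 with several kept probes in which the probes differed in sign in this comparison. In the comparison of siErbB4 with siScr they differed in sign in 7 of the 21.

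Among the accessory subunits Ndufa7 was the exception. It measured 5.81 in siScr 1, 5.69 in siScr 2, 5.67 in siErbB4 1 and 5.72 in siErbB4 2, with the numbers interleaved and a difference of -0.03 (SE 0.11). Ndufab1 measured -0.52, -0.43, -0.57 and -0.47, a difference of 0.09 (SE 0.11), also at the low end. Ndufa4 differed by 0.30 (SE 0.11). Ndufa4l2 had the largest difference of any respiratory gene, 1.82 (SE 0.86), which came from siErbB4 2: the 2 siScr arrays differed by 0.35 and the 2 siErbB4 arrays by 3.29. Its signals on the other arrays lay near the floor of the background flag.

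The assembly factors of complex I were less uniform, with 6 of 8 positive, 5 without overlap and a median of 0.19 (0.11 without siScr 1). Ndufaf6 measured 0.47, 0.96, 0.71 and 0.91, a difference of 0.35 (SE 0.13). Ndufaf7, a methyltransferase that acts on complex I during assembly, measured 2.11, 2.48, 2.24 and 2.49, a difference of 0.31 (SE 0.11). Ndufaf2 differed by 0.22 (SE 0.11). Against these, Ndufaf8 measured 0.58, 0.66, 0.70 and 0.58 and Ndufaf3 1.29, 1.20, 1.10 and 1.12, with interleaved numbers and differences of -0.02 and -0.03. Ndufaf4 differed by 0.07 (SE 0.15). The 20 assembly factors of other names, which serve complexes I to III and the ATP synthase (Acad9, Bcs1l, Atpaf1 and others), had a median of 0.13, with 17 positive, 13 higher without overlap and 2 lower without overlap; 0 were called in either direction in limma after Benjamini-Hochberg adjustment, and 1 was higher at an unadjusted p under 0.05. Over all features 29.4% were higher and 26.0% lower without overlap, and 12.3% were higher at that unadjusted p. The difference between subunits and assembly factors was not tested.

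All 9 complex III genes were positive, between 0.25 and 0.42, and 8 of them did not overlap (median 0.34). Cyc1 measured 5.69 in siScr 1, 6.04 in siScr 2, 5.47 in siErbB4 1 and 5.96 in siErbB4 2, a difference of 0.42 (SE 0.13). Uqcr11, a small membrane subunit, differed by 0.39 (SE 0.11). Uqcrc2, the second core protein, measured 5.16, 5.66, 5.36 and 5.64, a difference of 0.39 (SE 0.12). Uqcrfs1 differed by 0.41 (SE 0.16), with 0.63 between the siScr arrays and 0.18 between the siErbB4 arrays. Uqcrc1, the partner of Uqcrc2, was the 1 gene with overlap: siErbB4 2 lay just below siScr 1, and the difference was 0.25 (SE 0.16).

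All 17 ATP synthase genes were positive and without overlap, between 0.11 and 0.42 (median 0.29, or 0.17 with normexp and quantile normalization). The 3 genes with the lowest p encode parts of the peripheral stalk. Atp5h, subunit d, measured 6.62, 7.11, 6.66 and 7.0, a difference of 0.42 (SE 0.11), Atp5o, which joins the stalk to the catalytic head, measured 5.20, 5.61, 5.15 and 5.55, a difference of 0.41 (SE 0.11), and Atp5pb, subunit b, differed by 0.40 (SE 0.12). Of the catalytic head, Atp5a1 measured 6.44, 6.96, 6.56 and 6.71, a difference of 0.34 (SE 0.14), and Atp5b differed by 0.20 (SE 0.11). The 3 genes of the c subunit were not alike in size: Atp5g1 measured 7.07, 7.46, 7.05 and 7.37 (difference 0.36, SE 0.11), Atp5g3 differed by 0.23 (SE 0.12) and Atp5g2 measured 6.97, 7.02, 6.93 and 7.10 (difference 0.11, SE 0.11). The differences among the 3 genes were not tested.

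**Figure D3:**
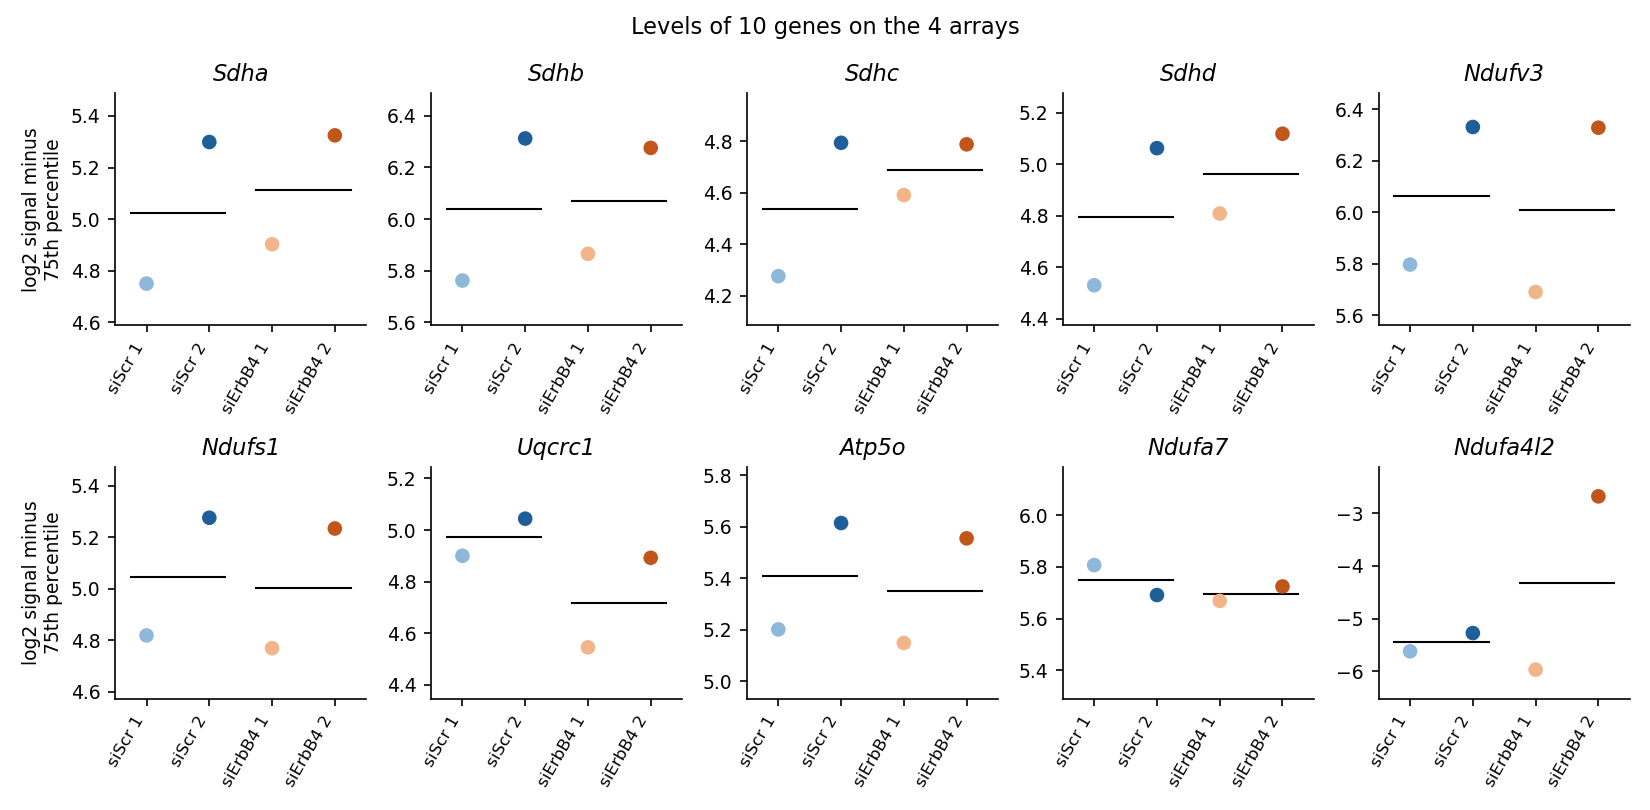
Scaled log2 level (processed signal relative to the 75th percentile of the array) of 10 genes on the 4 arrays, 1 point per array, with a black bar at the mean of the 2 arrays of each group. Axes start at different values; all panels span the same height except that of Ndufa4l2. In the top row and in Ndufs1, Uqcrc1 and Atp5o the array numbered 2 is the higher of each group, Ndufa7 shows no such order, and Ndufa4l2 is high on siErbB4 2 alone.

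Other mitochondrial genes were read beside these, from lists chosen with earlier results of these data known. Of the citric acid cycle genes 13 of 13 were higher in number 2 without overlap, with a median difference of 0.38, from 0.27 for Suclg2 to 0.54 for Idh3b, a subunit of the NAD-dependent isocitrate dehydrogenase. Carriers and electron carriers had a median of 0.33, also with 15 of 15 higher without overlap. Slc25a12, the aspartate/glutamate carrier, measured 2.74, 3.39, 2.77 and 3.34 (difference 0.61, adjusted p 0.0503 in limma after Benjamini-Hochberg adjustment), and Cycs, cytochrome c, differed by 0.34 (SE 0.14). Mitochondrial ribosomal protein genes were more mixed: of 77, 57 were positive, 43 were higher and 9 lower without overlap, and the median was 0.11. In these 3 lists 0 genes passed in limma after Benjamini-Hochberg adjustment, while 10, 8 and 4 were higher at an unadjusted p under 0.05. Over all features 12.3% were higher at that unadjusted p, a larger share than the 4 of 77 mitochondrial ribosomal genes. Without overlap, 29.4% of all features were higher and 26.0% lower.

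Of 15 regulators of mitochondrial biogenesis 10 were positive, with a median of 0.12, and 2 passed, beside 5.16% of all features. Esrrg, an estrogen-related receptor of oxidative muscle, measured 1.03, 1.70, 1.08 and 1.75 and rose in number 2 by 0.67 (SE 0.11, adjusted p 0.0448 in limma after Benjamini-Hochberg adjustment). Ppargc1b, a coactivator of respiratory genes, measured -1.76, -0.98, -1.63 and -1.06 and rose by 0.68 (SE 0.12, adjusted p 0.0496). Ppargc1a, its relative, measured 0.75 in siScr 1 and 1.64, 1.76 and 1.87 in the other arrays, so siScr 1 alone was low. Tfam, which packages mitochondrial DNA, differed by 0.46 (SE 0.12), while Nrf1 and Esrra differed by -0.01 (SE 0.12) and 0.16 (SE 0.10). Between siErbB4 and siScr 0 genes of these lists passed in limma, adjusted or at an unadjusted p under 0.05, and the list medians were -0.03 for the citric acid cycle, 0.03 for the carriers, 0.02 for the mitochondrial ribosome and 0.12 for the regulators.

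Some lists of markers of cell type and of cell division were ordered by number as well. Over all features 5.16% were called in either direction, and 29.4% were higher and 26.0% lower without overlap. Of 12 cardiomyocyte markers 11 were higher in number 2 without overlap (median 0.53), and Tnnt2 differed by -0.08. In limma after adjustment 2 passed, Tnni3 (0.97) and Ryr2 (0.69). The summed linear level of the 12, relative to the 75th percentile, was 1405 and 1749 in siScr 1 and 2 and 1372 and 1631 in siErbB4 1 and 2. Fibroblast and matrix markers went the other way in 12 of 14 (median -1.17), while Col6a2 (0.51) and Ddr2 (0.15) were higher in number 2. Of the 14, 4 were called lower, Col1a1, Fn1, Postn and Pdgfra. The 14 summed to 138 and 71.8 in siScr and 114 and 65.8 in siErbB4. Smooth muscle markers summed to 541 and 248 in siScr and 429 and 241 in siErbB4; Acta2 and Tagln were called lower, Cnn1 differed by -0.10 and Smtn by 0.41 in the other direction, and Myh11 was not well above background on both arrays of either group. All 7 proliferation genes were higher in number 2 (median 1.20), with 4 called, Mki67, Top2a, Ccnb1 and Cdk1, and summed levels of 19.3 and 41.7 in siScr and 24.7 and 45.0 in siErbB4. Of the 6 endoderm and hepatic markers that were tested 6 were positive (median 0.59) and 1, Afp, was called higher. Endothelial markers were divided, with 1 of 4 positive (median -0.48), as were neural markers with 1 of 4 (median -0.07) and pluripotency markers with 4 of 7 (median 0.06). Alb and Apoa1 of the endoderm and hepatic list had no kept probe and were not tested. The same held for the endothelial markers Tie1 and Emcn and the neural markers Pax6 and Map2. The 5 macrophage markers tested ranged from -2.35 to 3.24, with Lyz2 called higher, and Cd68 had no probe under its symbol. The part of these cell type and cell division differences in the order of the respiratory genes was not tested.

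**Figure D4:**
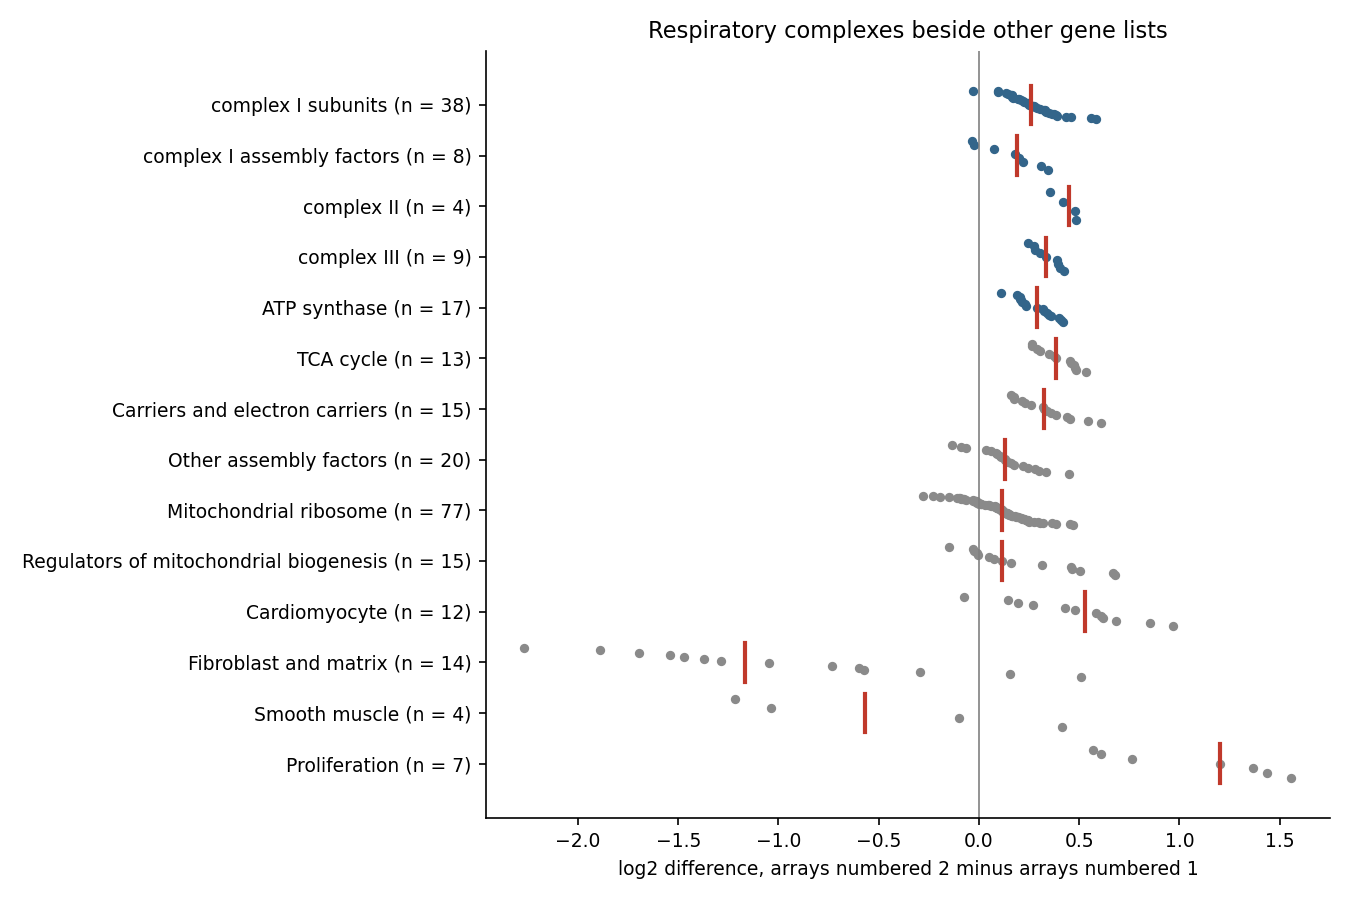
Log2 difference between the arrays numbered 2 and those numbered 1 for each gene (1 point per gene) of the respiratory classes, in blue, and of other lists, in grey; red bars are medians, and Ndufa4l2 is counted but not drawn. The respiratory genes, citric acid cycle and carrier lists lie above 0 apart from Ndufa7, Ndufaf3 and Ndufaf8, with medians from 0.19 to 0.45, while the fibroblast list has a median of -1.17 and the proliferation list one of 1.20.

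The promoters of the respiratory genes were read for sites of factors known for control of nuclear mitochondrial genes. RefSeq promoters of assembly GRCm38.p6, from 250 bases before to 50 bases after the start site, were at hand for 63 of the 76 genes, and exact matches were sought on both strands. The NRF1 site GCGCATGCG was present in 9 of 63 genes (14.3%), beside 1.95% of 27025 genes with a promoter and 3.64% of the 11873 of them that were tested. The ETS site CCGGAAG, as bound by GABP, was present in 16 (25.4%), beside 9.93% and 17.5%. The YY1 site AAGATGGCG was present in 8 (12.7%), beside 1.64% and 3.11%, and the ERR alpha site TCAAGGTCA in 2 (3.17%), Sdhd and Atp5g3, beside 0.466% and 0.345%. Up to 2 promoters were read per gene. At least 1 of the sites was in a promoter of 29 of the 63 genes, and matches of different sites overlapped in 0 of the genes. The shares are descriptions of letters in these windows, not of binding.

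The promoters below show how the NRF1 site lies near the start in a gene of the ATP synthase, of complex I, of complex III and of complex I assembly. They are printed 5′ to 3′ on the strand of the gene, with the matched letters in capitals. These are the NRF1 site and, in Atp5k and Uqcr11, an ETS site elsewhere in the window. Atp5k is on the minus strand at chr5:108434350-108434649, Ndufa8 on the minus strand at chr2:36049289-36049588, Uqcr11 on the minus strand at chr10:80406772-80407071 and Ndufaf5 on the plus strand at chr2:140170396-140170695. In Atp5k and Ndufaf5 the site reads the same on both strands and so gives 2 overlapping matches.
Atp5k: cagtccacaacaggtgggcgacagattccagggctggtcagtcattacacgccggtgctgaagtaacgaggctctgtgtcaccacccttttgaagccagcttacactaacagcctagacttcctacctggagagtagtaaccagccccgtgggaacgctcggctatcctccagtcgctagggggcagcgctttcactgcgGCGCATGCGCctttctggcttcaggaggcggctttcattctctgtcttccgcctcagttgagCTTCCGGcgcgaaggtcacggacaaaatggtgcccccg
Ndufa8: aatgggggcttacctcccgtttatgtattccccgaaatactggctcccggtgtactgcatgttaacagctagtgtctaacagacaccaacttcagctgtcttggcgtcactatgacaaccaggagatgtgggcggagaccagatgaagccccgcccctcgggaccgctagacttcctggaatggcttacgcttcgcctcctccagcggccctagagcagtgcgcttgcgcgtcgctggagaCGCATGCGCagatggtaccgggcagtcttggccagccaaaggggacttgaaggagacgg
Uqcr11: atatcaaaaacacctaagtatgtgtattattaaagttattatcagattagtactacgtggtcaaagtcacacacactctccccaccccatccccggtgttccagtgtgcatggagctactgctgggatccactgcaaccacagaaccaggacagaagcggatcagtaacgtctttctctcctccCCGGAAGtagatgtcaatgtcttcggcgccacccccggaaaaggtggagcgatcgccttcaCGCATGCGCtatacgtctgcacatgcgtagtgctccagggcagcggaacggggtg
Ndufaf5: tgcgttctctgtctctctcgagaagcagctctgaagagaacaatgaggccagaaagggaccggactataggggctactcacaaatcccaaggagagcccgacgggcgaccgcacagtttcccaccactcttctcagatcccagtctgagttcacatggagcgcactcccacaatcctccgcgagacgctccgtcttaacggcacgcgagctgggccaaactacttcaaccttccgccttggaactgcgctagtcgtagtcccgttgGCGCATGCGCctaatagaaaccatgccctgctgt
The 4 genes differed between the numbers by 0.32, 0.35, 0.39 and 0.20 in that order, and between siErbB4 and siScr by -0.04, 0.24, -0.06 and -0.13. Each was picked as the gene of its class with an NRF1 site and the lowest limma p between the numbers. Their differences between the numbers were thus selected and do not stand for all genes with the site. The other genes with it, Ndufa11, Uqcrc1, Atp5l, Atp5g2 and Ndufaf4, differed between the numbers by 0.28, 0.25, 0.21, 0.11 and 0.07.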

How the data were processed

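The deposited scanner files hold intensities. Per the submitters' processing notes the software was Agilent Feature Extraction, version 10.7.1.1. Per the file headers, the processed intensities were background-subtracted and detrended within each array and not scaled between arrays; raw medians and spot flags lie beside them. The authors also deposited log2 values, which matched those used here with a correlation of 1 and a median difference of at most 0.00327; their column medians were -3.81, -3.83, -3.84 and -3.86.

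Control spots (1377) and outlier spots were left out, spots of a probe averaged, and the log2 processed intensity taken minus each array's 75th percentile. A probe was kept if flagged well above background on both siScr arrays or on both siErbB4 arrays. Names came from RefSeq accessions (27508 of 39429 probes), and the brightest probe stood for a gene. Probe coordinates are not given, since the array's annotation names another build. Both comparisons were fitted over 20918 features with limma 3.58.1 in R 4.3.3 (two-sided, Benjamini-Hochberg adjustment, threshold 0.05), and the scripts were tested on simulated data. Normalization, background correction, filters, probe choice, the deposited table, blocks and leaving out each array were varied. Members and lists were chosen with earlier results of these data known. Named are, per class and comparison, the 3 genes with the lowest p and the 1 with the highest, plus a set list of core subunits; other genes were named after their values were seen. For 1 gene the values are not reported here.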

Additional observations from a re-analysis of the deposited data

Results flagged for a closer look

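In 3 classes the median difference between siErbB4 and siScr had opposite signs within the samples numbered 1 and within those numbered 2; whether the numbers differ in this was not tested. For the 38 complex I subunits it was 0.0108 within number 1 and -0.0276 within number 2. For the 8 assembly factors it was 0.124 and -0.0262, and for the 17 ATP synthase genes 0.113 and -0.0842.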

How the results depend on the processing

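With 2 arrays per group, the number of arrays limits every value. Between the numbers every class median stayed positive and at least 72 of the 76 genes were higher in number 2 in the alternatives run. Between siErbB4 and siScr, where 0 genes were called, directions were not kept. With quantile normalization the median differences between the numbers were 0.178 (complex I subunits), 0.222 (complex III) and 0.204 (ATP synthase). With normexp background correction they were 0.158, 0.212 and 0.172, with 1715 features and 2 respiratory genes called. Without a filter on dim probes 0 features were called between the numbers in limma after Benjamini-Hochberg adjustment, with 4679 at an unadjusted p under 0.05. With only probes well above background on all 4 arrays, 1 respiratory gene was called (Ndufv3, adjusted p 0.0445). Leaving out 1 array at a time, the features called ranged from 0 to 1551, and the median differences between the numbers from 0.222 to 0.309 (complex I subunits), 0.110 to 0.250 (assembly factors), 0.346 to 0.546 (complex II), 0.290 to 0.381 (complex III) and 0.226 to 0.333 (ATP synthase). In the same runs the medians of siErbB4 minus siScr crossed 0 in every class, from -0.131 to 0.161 (complex I subunits), -0.0648 to 0.229 (assembly factors), -0.145 to 0.388 (complex II), -0.242 to 0.134 (complex III) and -0.190 to 0.198 (ATP synthase). Quantile normalization turned them to 0.0405 (complex I subunits), 0.0314 (complex III) and 0.0659 (ATP synthase), and normexp to 0.0472, 0.0536 and 0.0552. Scaling on the median of all probes turned those of complex I subunits (0.0241) and ATP synthase (0.00778), and the mean of the probes of a gene that of ATP synthase (0.00263). The causes were not tested.

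In a fit that took the replicate number as a block, 0 features were called between siErbB4 and siScr in limma after Benjamini-Hochberg adjustment, 1567 at an unadjusted p under 0.05 (375 without the block), and 0 respiratory genes. The numbers are not said to pair the samples: number 2 minus number 1 correlated between the groups at 0.678 across all features and at 0.189 across the 76 respiratory genes, which are not independent replicates, and there were only 2 pairs. With the group as a term, 1527 features and 0 respiratory genes were called between the numbers.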
